A study of Mus musculus with 6 samples.

Results

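The genes described here encode antioxidant and redox enzymes, examined in ovarian secondary follicles of young and old mice. The list held 38 genes chosen by name, among them superoxide dismutases, catalase, glutathione peroxidases, peroxiredoxins, the thioredoxin system, the enzymes of glutathione synthesis and transfer, and the regulators Nfe2l2 and Keap1. Of these, 35 were measured by a probe set of their own, among 18193 genes in all. Every probe set of Prdx1 was annotated to more than 1 gene symbol, so Prdx1 was set aside, and Prdx5 and Prdx6 were not analysed here. The young group comprised 3 samples from female C57BL/6J mice of 9 weeks and the old group 3 samples from such mice of 32 weeks, all kept specific pathogen-free, with no treatment named in the labels. Whole follicles, in which granulosa cells surround an oocyte, were dissected with needles. Total RNA was hybridised to Affymetrix arrays, on which several short probes near the 3' end of a transcript form 1 probe set. Unless stated otherwise, values are log2 intensities of the brightest probe set of a gene over the 6 arrays, and differences are old minus young. The labels call the samples biological replicates without saying how many mice stand behind each, so p-values measure only the spread between these samples.

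Cells form superoxide and hydrogen peroxide as by-products of respiration and other oxidations. Superoxide dismutases turn superoxide into hydrogen peroxide, and catalase, glutathione peroxidases and peroxiredoxins reduce hydrogen peroxide to water. Glutathione and thioredoxin recharge the peroxidases and are themselves reduced with NADPH. Many of these genes are induced by the transcription factor NFE2L2, which KEAP1 keeps scarce until oxidants or electrophiles modify KEAP1. In the ovary, the growing oocyte is known to accumulate glutathione, and granulosa cells help to supply it.

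Markers of granulosa cells and of the oocyte had a mean log2 intensity of at least 6, except for 1 of 18 oocyte markers, Sohlh1. Markers are counted as lower or higher at a limma adjusted p of at most 0.05. At that threshold 13.3% of all genes were lower and 10.1% higher. Among genes with a mean of at least 6 the shares were 20.6% and 9.04%. Of 14 granulosa cell markers, 4 were lower, among them, with log2 fold changes in parentheses, Gatm (-0.75), Esr2 (-0.47) and Kitl (-0.43), and 1 was higher, while the summed linear intensity of that list overlapped between the ages (34873 to 35259 in young and 34347 to 35470.4 in old follicles). The brightest granulosa cell markers, Inha (-0.02) and Inhbb (0.03), were not called. Of 18 oocyte markers, 14 were lower and none was higher in old follicles, and their summed intensity ranged from 38649 to 40019.8 at the younger and from 33015 to 33576 at the older age. Khdc3 (-0.64), Mos (-0.63) and Zp3 (-0.54) had the smallest p among them, and of the brightest pair Gdf9 was lower (-0.20, limma adjusted p = 0.026) and Ooep had a mean of 12.41 at both ages. Markers of other cells were more often higher than lower. Of 10 theca and steroidogenic cell markers 5 were higher and none was lower, Star (1.87), Cyp11a1 (1.34) and Tagln (1.06) past a fold of 2, and the sum was 5859 to 6064 in young and 6756 to 6779 in old follicles. Hsd3b1 (0.04) and Ptch1 (-0.02), the brightest on that list, were not called. For macrophages and dendritic cells, 13 of 20 markers were higher and 1 was lower, the sum went from 641 to 658 up to 990.1 to 1053, and 17 of the 20 had a mean under 6. All 8 surface epithelium markers were higher (sums of 817 to 851 and of 1179.8 to 1255), as were 5 of 11 endothelial markers, with 1 lower (431 to 438 and 530.1 to 563), and 2 of 4 erythroid markers, all 4 with a mean under 6. The control signal along transcripts moved with age as well. For Gapdh, the 3' control probe set exceeded the 5' one by 0.47 ± 0.014 in young and by 1.51 ± 0.0048 in old follicles, and for beta-actin by 1.48 ± 0.033 and 2.53 ± 0.050 (log2, SD, n = 3 each). The exact permutation test, two-sided, returned p = 0.1 for both, which is as low as 3 samples against 3 can go. The part of these shifts in the results below was not tested. In whole follicles, fewer cells of a type and less RNA per cell cannot be told apart.

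Of 6 genes of glutathione synthesis, glutathione recycling and glutaredoxins 5 were lower in old follicles, as were 3 of 6 glutathione transferases and the regulator gene Nfe2l2. The genes and their roles were chosen with earlier results of these data known, so the counts describe these data and are not independent support. Of the 35 measured redox genes, 11 (31.4%) were lower with an adjusted p of at most 0.05 (limma, Benjamini-Hochberg over all genes), where 13.3% of all genes tested were lower. Only 3 (8.57%) were higher, where the background was 10.1%, and 21 were not called. In either direction the background was 23.4%. At the brightest probe sets the changes were small. There, no redox gene reached the study's fold of 2 in limma, as 0.764% of all genes did. The dimmer probe sets of Glrx (-1.71) and Keap1 (-1.05) passed it, as given below. An unadjusted p under 0.05 was found in 24 redox genes, and in 6785 of all 18193 genes (3072 higher and 3713 lower). The median absolute log2 difference was 0.19 over the redox genes and 0.13 over all genes. In 25 redox genes (71.4%) the young and old values did not overlap, against 42.5% of all genes. Of these, 15 were lower with age, where the background was 23.7%, and 10 were higher, where it was 18.9%.

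Brightness and scaling both bear on these counts. Most redox genes (31 of 35) had a mean log2 intensity of at least 6, and genes that bright were more often lower. Among them, 11 redox genes were lower against a background of 20.6% and 2 were higher against 9.04%, with a background of 29.7% in either direction and 0.796% past a fold of 2. Of these 31, 24 did not overlap between the ages against 55.4% of all genes as bright, 15 of them lower (background 36.5%) and 9 higher (18.9%). A further quantile normalization left 9 redox genes lower and raised the number of higher ones to 6, where the backgrounds were 9.67% and 13.2%. With cyclic loess normalization 9 were lower and 8 higher, where they were 9.76% and 12.9%.

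**Figure D1:**
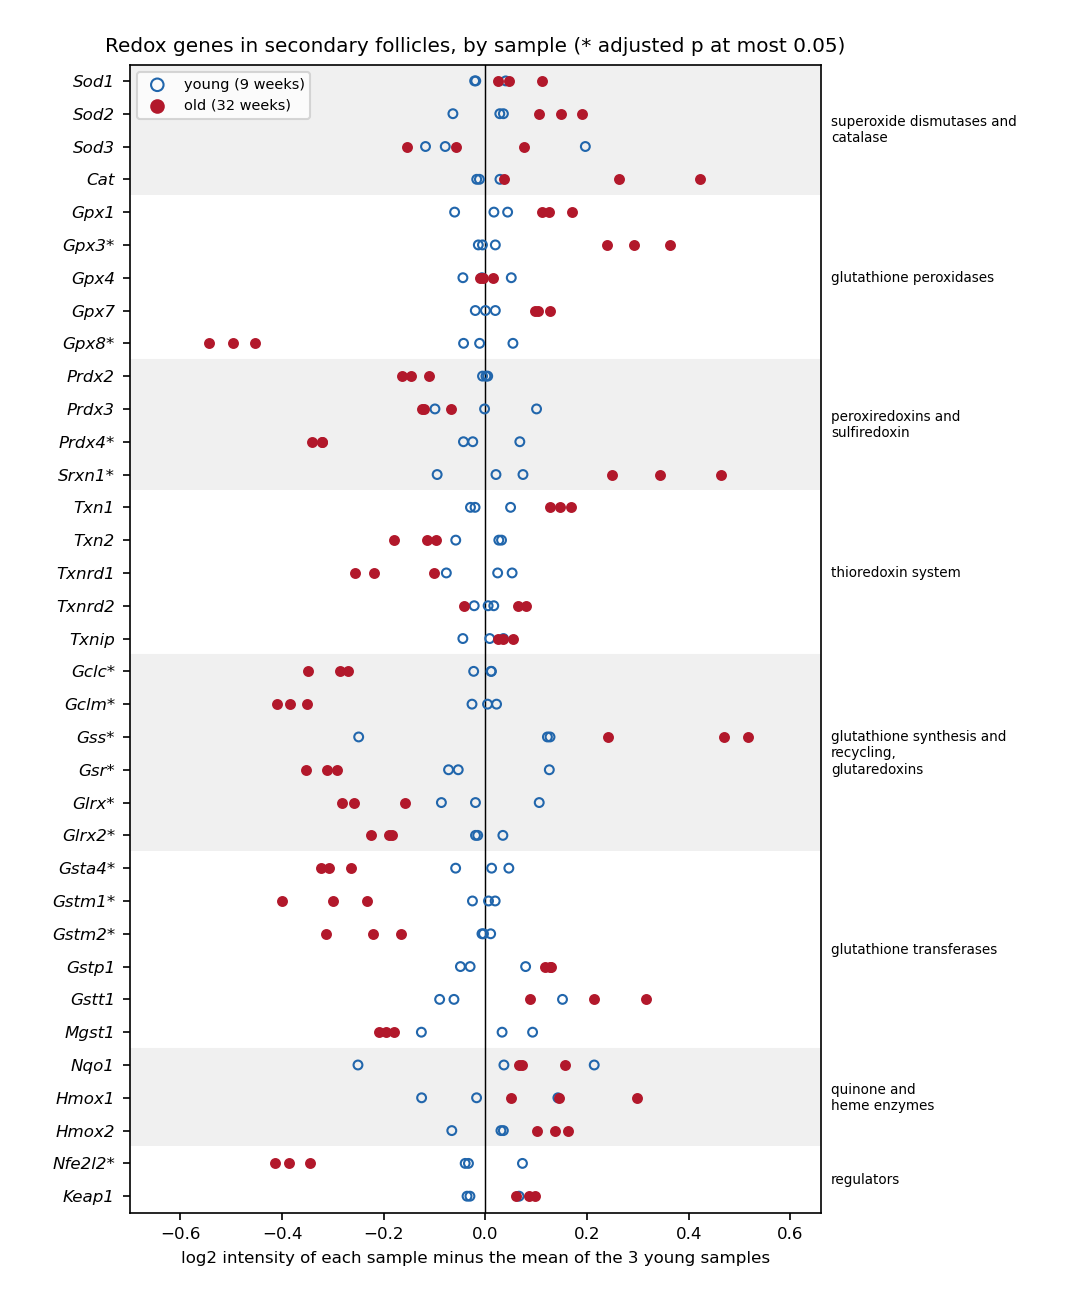
Log2 intensity of each sample minus the mean of the 3 young samples (horizontal axis) for the 35 measured redox genes (rows, grouped by role), with 1 circle per sample, open for young and filled for old, and a star at genes with an adjusted p of at most 0.05. Among genes of glutathione synthesis, recycling and glutaredoxins all old circles lie left of all young circles, except for Gss, where they lie to the right.

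Nfe2l2 encodes the transcription factor that switches on many antioxidant genes. Young follicles gave 9.85, 9.75 and 9.74, and old follicles 9.39, 9.37 and 9.44. Every old sample lay below every young sample, with a log2 fold change of -0.38 (standard error 0.06, limma adjusted p = 0.0038), so that the old level was 76.7% of the young one. A second, dim probe set of Nfe2l2 went the other way, from 3.82, 3.98 and 3.51 at 9 weeks to 4.54, 4.87 and 4.72 at 32 weeks (log2 fold change 0.94, limma adjusted p = 0.0026 over 34945 probe sets). With both probe sets averaged the difference was 0.28 (limma adjusted p = 0.038), so the direction given for Nfe2l2 rests on the brighter one. Keap1, the inhibitor of NFE2L2, was at 8.54 ± 0.058 and at 8.62 ± 0.018 with age (SD, n = 3 each, 95% interval of the difference -0.04 to 0.21). Its dimmer probe set fell from a mean of 5.57 to 4.52, a log2 fold change of -1.05 (limma adjusted p = 4.7e-04 over the probe sets).

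The promoters of 3 redox genes that moved are shown because they hold the core letters that NFE2L2 recognizes, the antioxidant response element. Nfe2l2 and Gclm, a subunit of the first enzyme of glutathione synthesis, were lower in old follicles, and Srxn1, the sulfiredoxin gene, was higher. Each sequence, from RefSeq on GRCm38.p6, runs 5′ to 3′ along its gene from 250 bases before to 50 bases after the start of the transcript. The windows are chr2:75704614-75704913 on the minus strand for Nfe2l2, chr3:122245307-122245606 on the plus strand for Gclm and chr2:152105274-152105573 on the plus strand for Srxn1. Capitals mark matches to TGACNNNGC, the form of the core searched here, and to TGANTCA, the site of AP-1, each searched on both strands.
Nfe2l2: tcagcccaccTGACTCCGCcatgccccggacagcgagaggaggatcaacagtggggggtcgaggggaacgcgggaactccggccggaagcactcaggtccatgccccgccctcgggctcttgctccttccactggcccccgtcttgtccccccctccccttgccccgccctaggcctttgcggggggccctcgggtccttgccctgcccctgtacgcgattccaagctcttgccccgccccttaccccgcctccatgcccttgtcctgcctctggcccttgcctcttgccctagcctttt
Gclm: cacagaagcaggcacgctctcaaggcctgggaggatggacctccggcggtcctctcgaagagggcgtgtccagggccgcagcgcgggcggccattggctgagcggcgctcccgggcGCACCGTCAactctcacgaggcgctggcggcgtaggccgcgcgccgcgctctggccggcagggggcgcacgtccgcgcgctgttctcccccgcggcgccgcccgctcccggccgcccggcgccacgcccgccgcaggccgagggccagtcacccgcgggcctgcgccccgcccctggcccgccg
Srxn1: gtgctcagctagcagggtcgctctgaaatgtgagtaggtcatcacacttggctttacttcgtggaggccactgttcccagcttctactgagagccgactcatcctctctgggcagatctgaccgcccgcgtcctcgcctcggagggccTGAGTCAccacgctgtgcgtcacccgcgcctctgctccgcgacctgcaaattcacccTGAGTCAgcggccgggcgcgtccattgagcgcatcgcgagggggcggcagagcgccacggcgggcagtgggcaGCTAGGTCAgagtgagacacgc
In Nfe2l2 the core lay 240 to 232 bases before the start. In Gclm it lay on the opposite strand, 134 to 126 bases before the start, and in Srxn1 on the opposite strand at bases 29 to 37 after it. Srxn1 also held the AP-1 letters 102 to 96 and 45 to 39 bases before the start. The motifs share letters and can overlap, which the matches to these patterns did not do in the windows shown. The AP-1 match of Srxn1 nearer the start is followed by GC, and TGAGTCAGC differs from the searched core only by G for C. Other forms of the core were not searched, so the counts below hold for TGACNNNGC only. Of 30 measured redox genes with a promoter window, 6 (20.0%) held the core, against 14.0% of the 27025 genes in the table. By call it was found in 2 of 8 lower, 1 of 3 higher and 3 of 19 other genes. The AP-1 letters were found in Srxn1, Glrx and Gstp1 (10.0%), against 8.97% of all genes. The windows of Gclc, Gsr, Gsta4, Hmox1 and Sod3 were not analysed here. A match describes letters and is not a measured binding site.

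All 6 measured genes of glutathione synthesis, glutathione recycling and the glutaredoxins were called, 5 lower and 1 higher. Of all genes 13.3% were lower and 10.1% higher. Gclc and Gclm encode the catalytic and the modifier subunit of glutamate-cysteine ligase, the rate-limiting enzyme of glutathione synthesis. For Gclc, the 3 young values were 8.92, 8.88 and 8.91 and the old values 8.55, 8.63 and 8.62, a log2 fold change of -0.30 (standard error 0.05, limma adjusted p = 0.0062). For Gclm, they were 9.34, 9.32 and 9.29 and, with age, 8.91, 8.97 and 8.94, a log2 fold change of -0.38 (standard error 0.05, limma adjusted p = 0.0023). The second probe set of Gclc had a difference of -0.18 and was not called (limma adjusted p = 0.084 over the probe sets), and the call of Gclc was lost when only probe sets without a suffix were used (adjusted p = 0.075). The second probe set of Gclm had a difference of -0.10 with overlapping groups and was not called (limma adjusted p = 0.45 over the probe sets). At the brightest probe sets of both subunits all old samples lay below all young samples, at 81.1% and 76.8% of the young level. Gsr, glutathione reductase, which restores glutathione from its oxidized form with NADPH, had values of 7.99, 7.79 and 7.81 at 9 weeks and of 7.51, 7.57 and 7.55 at 32 weeks. Its groups did not overlap either (log2 fold change -0.32, standard error 0.07, limma adjusted p = 0.015). The dimmer probe set of Gsr had a log2 fold change of -0.87 (limma adjusted p = 0.0017 over the probe sets).

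Gss, glutathione synthetase, which carries out the last step of glutathione synthesis, was higher at its brightest probe set. Values of 5.81, 6.19 and 6.19 in young follicles stood against 6.30, 6.53 and 6.58 in old ones, a log2 fold change of 0.41 (standard error 0.12, limma adjusted p = 0.047). The groups did not overlap, but young replicate 1 lay well below the other young samples. The call was lost without young replicate 1 (log2 fold change 0.28, adjusted p = 0.085) and likewise without young replicate 2 or 3 or old replicate 2 or 3, and the other probe set of Gss had a difference of -0.13 that was not called. The glutaredoxins reduce proteins that carry glutathione on a cysteine. Glrx had a log2 fold change of -0.23 (limma adjusted p = 0.047), and Glrx2, its mitochondrial relative, of -0.20 (limma adjusted p = 0.026), with no overlap between the ages in either. Both calls were lost after a further quantile normalization (adjusted p = 0.083 for Glrx and 0.079 for Glrx2), with the replicate number as a block (0.070 and 0.064) and without any single sample other than old replicate 2 (adjusted p from 0.051 to 0.14). The other probe sets of Glrx2 overlapped between the ages and were not called, with differences of -0.05 and 0.0084. With its probe sets averaged, the difference of Glrx2 was -0.08 (limma adjusted p = 0.27). The second probe set of Glrx had the largest difference of the redox probe sets, from 8.14, 8.03 and 7.91 down to 6.19, 6.53 and 6.23 (log2 fold change -1.71, standard error 0.11, limma adjusted p = 7.4e-05 over the probe sets).

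Glutathione transferases attach glutathione to reactive compounds. Of 6 measured, 3 were lower and none was higher in limma, where 13.3% of all genes were lower and 10.1% higher. Without adjustment 4 were lower and 1 higher at a p under 0.05, against 3713 and 3072 of all 18193 genes. Gsta4, an alpha-class enzyme that removes the lipid peroxidation product hydroxynonenal, had young values of 10.05, 9.95 and 10.02 and old values of 9.68, 9.74 and 9.70 (log2 fold change -0.30, standard error 0.05, limma adjusted p = 0.0079). Gstm1, of the mu class, had young values of 10.79, 10.78 and 10.75 and old values of 10.37, 10.54 and 10.48 (log2 fold change -0.31, standard error 0.06, limma adjusted p = 0.010). In both genes the old samples all lay below the young ones, at 81.3% and 80.6% of the young level. The brightest probe set of Gstm1, like those of Gss and Txn2, is of a kind that can also bind related sequences. In Gstm1, 2 of the other 3 probe sets were lower too, with log2 fold changes of -0.36 and -0.30. Gstm2 went from 11.02, 11.04 and 11.02 to 10.86, 10.80 and 10.71 (log2 fold change -0.23, standard error 0.06, limma adjusted p = 0.024). The groups did not overlap, but the call was lost without any 1 young sample or without old replicate 3 (adjusted p from 0.053 to 0.081), and with the replicate number as a block (adjusted p = 0.052). Genes of the mu class are alike in sequence, so how well the probe sets told them apart is uncertain. Mgst1, the microsomal transferase, was at 11.20 ± 0.11 and 11.01 ± 0.015 and was not called (SD, n = 3 each, limma adjusted p = 0.076), but was called lower without young replicate 1 (log2 fold change -0.26, adjusted p = 0.025). For Gstp1, of the pi class, and Gstt1, of the theta class, the 95% intervals of the difference ran from -0.0038 to 0.25 and from 6.2e-04 to 0.41.

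The glutathione peroxidases did not move alike. Gpx8, a peroxidase of the membrane of the endoplasmic reticulum, had the lowest log2 fold change of the redox genes at their brightest probe sets. It went from 8.61, 8.51 and 8.54 at 9 weeks to 8.06, 8.01 and 8.10 at 32 weeks (log2 fold change -0.50, standard error 0.05, limma adjusted p = 0.0013). The old level was 70.8% of the young level, and the groups lay farther apart than the samples within them. Gpx3, the secreted peroxidase of blood plasma, was higher, going from 9.23, 9.21 and 9.20 to 9.45, 9.58 and 9.50 (log2 fold change 0.30, standard error 0.05, limma adjusted p = 0.0084). All old samples lay above the young samples, which were nearly equal. Gpx4, which reduces lipid peroxides in membranes, had a mean of 11.21 at both ages, with a 95% interval of the difference from -0.12 to 0.12. Gpx1, the main cytosolic enzyme, was at 10.35 ± 0.054 and 10.48 ± 0.031, and Gpx7, of the endoplasmic reticulum, at 10.10 ± 0.020 and 10.21 ± 0.015 (young and old, SD, n = 3 each). Neither was called (limma adjusted p = 0.11 and 0.14), although the ages did not overlap in either.

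Among the peroxiredoxins and sulfiredoxin, Prdx4 was lower and Srxn1 was higher. Prdx4, the peroxiredoxin of the endoplasmic reticulum, went from 10.95, 10.84 and 10.85 to 10.56, 10.56 and 10.54 (log2 fold change -0.33, standard error 0.05, limma adjusted p = 0.0054). The old samples lay close together and below all young samples. Its 3 other probe sets were not called and had differences of the opposite sign (0.10, 0.11 and 0.17). With all 4 averaged the difference was 0.01, so the direction given for Prdx4 rests on the brightest one. Srxn1, which restores peroxiredoxins whose cysteine has been over-oxidized, was dim. It went from 5.18, 5.30 and 5.35 to 5.74, 5.62 and 5.53, without overlap (log2 fold change 0.35, standard error 0.08, limma adjusted p = 0.016). None of its 3 other probe sets was called, and with all 4 averaged the difference was 0.05 (limma adjusted p = 0.55). The call of Srxn1 was also lost with only probe sets without a suffix (difference 0.05, limma adjusted p = 0.69). Prdx2, a cytosolic peroxiredoxin, was at 11.10 ± 0.0052 and 10.96 ± 0.027 (SD, n = 3 each) and was not called at its brightest probe set (limma adjusted p = 0.073). At the other it was lower (log2 fold change -0.33, limma adjusted p = 0.011 over the probe sets). For Prdx3, of mitochondria, the 95% interval of the difference ran from -0.26 to 0.05.

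None of the superoxide dismutases, catalase, the thioredoxin system or the quinone and heme enzymes was called by limma. An unadjusted p under 0.05 was found in 6 of these 12 genes, against 6785 of all 18193 genes. Other settings of limma called Sod2, Txn1 and Hmox2 higher and Txn2, Txnrd1 and Txnip lower, each in only part of the settings. Cat was called higher in some settings and lower with only probe sets without a suffix (log2 fold change -0.45, limma adjusted p = 0.0057). Sod1, the copper and zinc enzyme of the cytosol, was at 12.16 ± 0.035 and 12.22 ± 0.046 (SD, n = 3 each, 95% interval of the difference -0.06 to 0.18). Sod2, the manganese enzyme of mitochondria, was at 9.60 ± 0.055 and 9.75 ± 0.042 (SD, n = 3 each), without overlap (limma adjusted p = 0.094). Sod3, the secreted enzyme, was dim, with a young mean of 4.04 and an interval from -0.28 to 0.19. Catalase, the peroxisomal enzyme that splits hydrogen peroxide, had a pair of probe sets that went opposite ways. The brighter went from 7.65, 7.64 and 7.69 to 8.08, 7.70 and 7.92 and was not called (log2 difference 0.24, limma adjusted p = 0.11). It was called higher without old replicate 2 (log2 fold change 0.34, adjusted p = 0.020). The other went from 7.96, 8.02 and 7.86 to 7.59, 7.38 and 7.51 (log2 fold change -0.45, limma adjusted p = 0.0055 over the probe sets). The probe sets of catalase therefore give no single direction.

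Thioredoxins pass electrons from NADPH, through thioredoxin reductases, to peroxiredoxins and other proteins. Txn1, the cytosolic form, was at 11.25 ± 0.043 and 11.40 ± 0.021 (SD, n = 3 each, limma adjusted p = 0.076), and its reductase Txnrd1 at 9.61 ± 0.068 and 9.41 ± 0.081 (SD, n = 3 each, limma adjusted p = 0.071). The ages overlapped in neither gene, and the differences of 0.15 and -0.19 had opposite signs. The mitochondrial pair Txn2 and Txnrd2 had 95% intervals from -0.26 to -0.0030 and from -0.09 to 0.16. Each had a dimmer probe set that was lower, with log2 fold changes of -0.41 for Txn2 and -0.57 for Txnrd2 (limma adjusted p = 0.0045 and 0.0080 over the probe sets). Txnip, which binds and inhibits thioredoxin, was at 11.07 and 11.10 at its brightest probe set (95% interval -0.08 to 0.16), while its dimmer one was lower (log2 fold change -0.70, limma adjusted p = 0.0067 over the probe sets). Hmox1, the inducible enzyme that breaks down heme, was dim, with means of 5.39 and 5.56 and overlapping groups. Hmox2, its constitutive form, was at 8.99 ± 0.057 and 9.12 ± 0.030 (SD, n = 3 each, limma adjusted p = 0.12). Nqo1, a quinone reductase and a standard NFE2L2 target, was dim at 4.01 and 4.11, with an interval from -0.16 to 0.36.

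**Figure D2:**
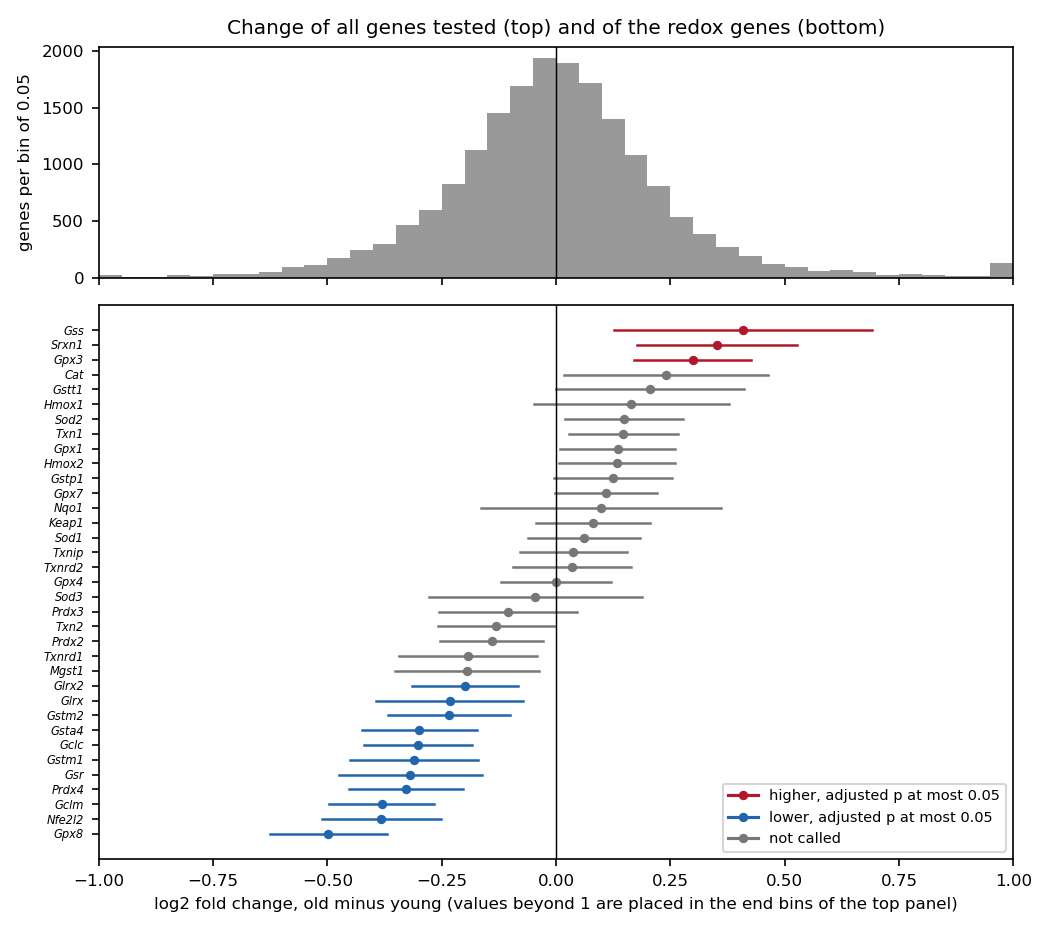
Top, number of genes in each bin of log2 fold change (old minus young) over the 18193 genes tested. Bottom, the 35 redox genes in order of log2 fold change, with a point at the estimate and a line for its 95% interval from limma, not adjusted for the number of genes, in blue for the 11 lower, in red for the 3 higher and in grey for the 21 not called, running from -0.50 for Gpx8 to 0.41 for Gss.

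Over all their probe sets the redox genes were more often lower than higher. Of 74 probe sets, 20 (27.0%) were lower and 5 (6.76%) higher in the fit over all probe sets, where the background was 13.8% and 8.95%. Of the 39 that were not the brightest of their gene, 10 were lower and 2 were higher. For these 39 and the counts by gene that follow, no share over all genes was computed. Another probe set was lower in 6 genes that were not called at the brightest, which were Cat, Keap1, Prdx2, Txn2, Txnip and Txnrd2, and was higher in 1, Sod1. A fold of 2 was passed in 2 genes, Glrx and Keap1, in both by the dimmer probe set and downward. Of 8 lower genes with several probe sets, the next brightest had the same sign in 6 and was itself lower in 3, which were Gsr, Gstm1 and Glrx. The control probe sets for 3' against 5' signal shifted by 1.04 for Gapdh and 1.05 for beta-actin between the ages. The distance of each probe set from the transcript end was not analysed here.

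**Figure D3:**
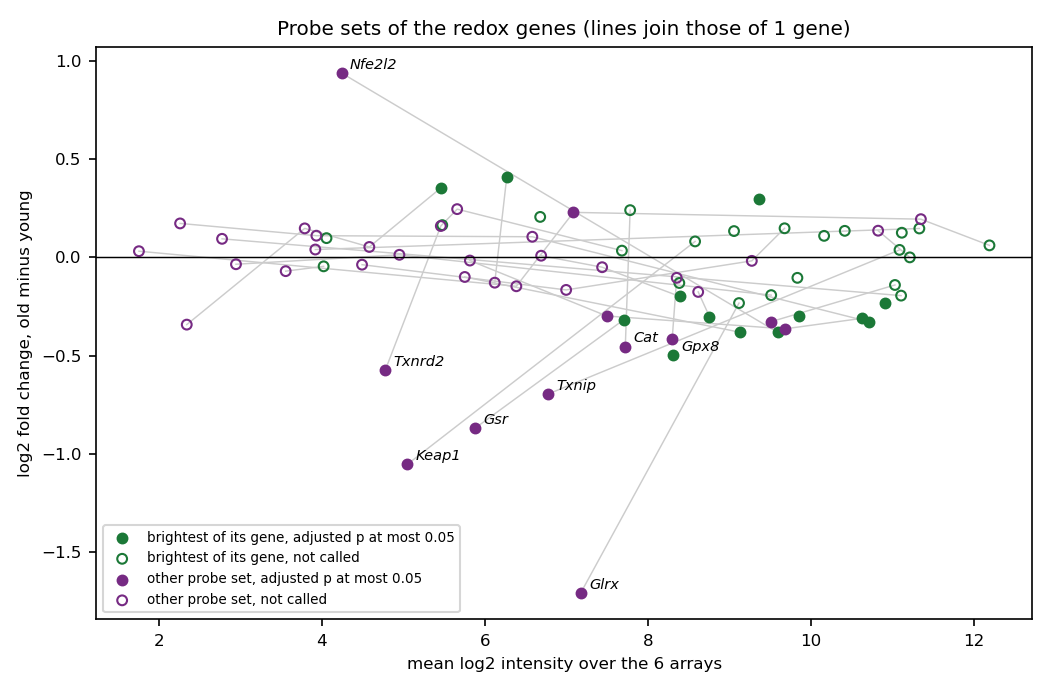
Each point is 1 of the 74 probe sets of the redox genes, with mean log2 intensity over the 6 arrays on the horizontal and log2 fold change (old minus young) on the vertical axis, green for the brightest of its gene and purple for the others, filled at an adjusted p of at most 0.05. The dimmer probe sets of Glrx (-1.71) and Keap1 (-1.05) lie lowest, and the dim one of Nfe2l2 (0.94) lies highest.

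Among further redox genes the shares called lay nearer to those of all genes. Over 8 other lists with 163 measured genes, 20 were higher (12.3%) and 25 were lower (15.3%), against backgrounds of 10.1% and 13.3%. None reached a fold of 2 in limma. At a p under 0.05 before adjustment 31 were higher and 41 lower, against 3072 and 3713 of all 18193 genes. Leaving out any 1 of the 6 samples lowered the number of higher genes to 12 or 13, where 6.25% to 8.09% of all genes were higher. Of 18 other glutathione transferases, 4 were lower and 1 was higher, with a median log2 difference of -0.13. Gstm7 (-0.52) and Gstm5 (-0.30), both of the mu class, and the omega-class gene Gsto1 (-0.29) were lower. Of 22 genes of glutathione supply and breakdown, 4 were lower and 2 higher (median 0.02). Chac2, which cleaves glutathione, was lower by a log2 fold change of -0.47, the aminopeptidase gene Lap3 by -0.44 and Glo1, the glyoxalase that uses glutathione to remove methylglyoxal, by -0.27. Of 26 other peroxidases and thiol oxidoreductases, 2 were lower and none was higher in limma (median -0.02), with 4 lower and 1 higher at a p under 0.05 before adjustment. The lower ones were Msrb2 (-0.47), a methionine sulfoxide reductase of mitochondria, and Gpx6 (-0.23).

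Genes that supply NADPH were split, with 4 of 17 higher and 4 lower (median -0.0095), where 10.1% of all genes were higher and 13.3% lower. The mitochondrial genes Mthfd2 (-0.55), a folate enzyme, Nadk2 (-0.64), an NAD kinase, and Nnt (-0.56), the transhydrogenase, were lower. Of 21 other NFE2L2 target genes, 4 were higher and 2 lower (median 0.02). Akr1c13, an aldo-keto reductase, went from 7.35 ± 0.073 to 8.32 ± 0.014 (SD, n = 3 each, log2 fold change 0.97, limma adjusted p = 7.5e-05). Pgd, of the pentose phosphate pathway, which is also in the NADPH list, was higher (0.34), and Fth1, the heavy chain of ferritin, which stores iron, was lower (-0.29). Of 19 partners and regulators of NFE2L2, 3 were higher and 3 lower (median -0.10). Trim21, a ubiquitin ligase that interferon also induces, was higher (0.67), while Btrc (-0.34), part of a ligase that marks NFE2L2 for breakdown, and the coactivator gene Crebbp (-0.27) were lower.

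Of 24 genes of selenoproteins and their synthesis, 4 were higher and 3 lower (median -0.10), where 10.1% of all genes were higher and 13.3% lower. Selenof, a selenoprotein of the endoplasmic reticulum, went from 10.32 ± 0.021 to 9.71 ± 0.017 (SD, n = 3 each, log2 fold change -0.62, limma adjusted p = 2.8e-04). Dio2, a deiodinase that activates thyroid hormone, was lower (-0.73), and Selenom, also of the endoplasmic reticulum, was higher (0.64). Of 21 sources of superoxide and hydrogen peroxide, 4 were higher and 3 lower (median 0.07). Xdh, xanthine dehydrogenase (-0.27), and Rac1, a GTPase that activates NADPH oxidases (-0.33), were lower, and Hao1, a peroxisomal oxidase, was higher (0.58) at a dim probe set with means of 2.90 and 3.48.

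**Figure D4:**
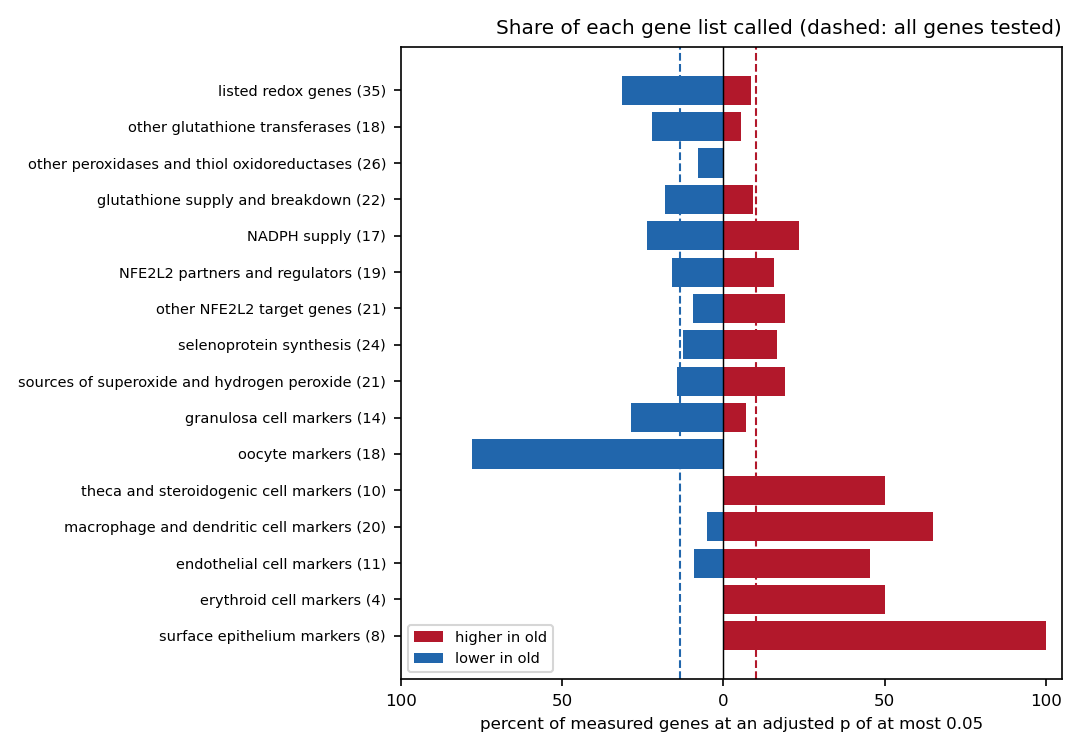
Percent of the measured genes of each list (number in parentheses) with an adjusted p of at most 0.05, lower in old to the left in blue and higher in old to the right in red, with dashed lines at the shares over all 18193 genes (13.3% and 10.1%). The redox genes reach 31.4% lower, the other redox lists lie between 7.69% and 23.5% lower, and the oocyte markers reach 77.8% lower. The lists were chosen with earlier results of these data known.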

How the data were processed

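RNA of secondary follicles was hybridised to 6 Affymetrix Mouse Genome arrays. The authors normalized the scans with RMA (no version stated) and deposited intensity values on a linear scale, from 2.62 to 13880.4, of which log2 was taken without a pseudocount. The platform annotation gave 34945 probe sets a single gene symbol, and gene IDs were looked up in RefSeq (GRCm38.p6), where 18032 of 18194 were found. Probe sets with several symbols (932), unnamed ones (9160) and 64 controls stayed out of the gene tests. The brightest probe set stood for a gene. The ages were compared with limma 3.58.1 in R 4.3.3 (lmFit, eBayes, two-sided, Benjamini-Hochberg over 18193 genes), where the study used SAM. A call is an adjusted p of at most 0.05, and calls that also pass the study's fold of 2 are counted apart. All 34945 probe sets were fitted likewise. Control ratios were compared by exact permutation (scipy 1.17.1). On simulated data for this comparison (18193 genes), limma recovered 89 of 100 genes changed by 0.5 and 100 of 100 changed by 1.5 on the log2 scale, with 11 calls among unchanged genes. The median SD within groups was 0.089, and 3 arrays a group limit the precision. The redox genes, their roles and the other lists were chosen with earlier results of these data known. Every measured redox gene is named. Values of all samples were due for calls with a fold of at least 1.2 and the nearest call below it, and those of catalase and of dimmer probe sets were added after they were seen. From other redox lists, up to 3 called genes with the smallest p are named, and of the granulosa, oocyte and theca markers some with the smallest p or the highest intensity. Sohlh1 was named after its value was seen. Alternatives were other rules for probe sets, 2 normalizations, a filter on dim genes, another variance prior, array weights, the replicate number as a block, a fold of 1.5 and leaving out each sample.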

Additional observations from a re-analysis of the deposited data

How the results depend on the processing

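Calls and directions of Gpx8, Gclm, Gsr, Gsta4, Gstm1 and Gpx3 held under every alternative run. The count of 0 redox genes past a fold of 2 held too, with 1 value per gene in each alternative. It leaves out the dimmer probe sets of Glrx and Keap1 taken on their own. The number of lower redox genes lay between 8 and 15, the highest with the filter on dim genes, where 30.2% of all genes were lower. The lowest came with the replicate block and in some fits without 1 sample, where 8.12% to 10.5% of all genes were lower. The number of higher redox genes, 3, became 1 with only probe sets without a suffix (8.90% of all genes higher). It became 6 after quantile normalization (13.2%) and with array weights (13.4%), 8 with cyclic loess (12.9%) and with the filter on dim genes (14.4%), and 10 with a trended, robust prior (12.4%). Genes not called otherwise were called under the dim filter (Sod2, Cat, Gpx1, Prdx2, Txn1, Txn2, Txnrd1, Gstt1, Mgst1, Hmox2) or the trended prior (Sod2, Cat, Gpx1, Gpx7, Prdx2, Txn1, Txnrd1, Gstp1, Mgst1, Hmox2). Others were called with array weights (Cat, Prdx2, Txn1, Txnrd1, Gstp1, Mgst1) and after quantile (Sod2, Gstt1, Hmox2) or loess normalization (Sod2, Gpx1, Txn1, Gstt1, Hmox2). Averaging called Prdx2, Txn2, Txnip and Keap1, all lower. With only probe sets without a suffix Cat was called lower, and without 1 sample Cat and Mgst1 were called. Higher genes of the other redox lists numbered 31 after either normalization (13.2% and 12.9% of all genes higher) and 12 to 13 without 1 sample (6.25% to 8.09%). Against the middle probe set, the 3' control difference rose by 0.49 for Gapdh and 0.45 for beta-actin. With probe sets averaged, the sign turned for Nfe2l2 (0.28), Prdx4 (0.015), Sod2 (-0.018), Cat (-0.11), Gpx4 (0.068), Txnrd2 (-0.033), Txnip (-0.33) and Keap1 (-0.49). With only probe sets without a suffix it turned for Gss (-0.13), Cat (-0.45), Sod2 (-0.018) and Mgst1 (0.094). Gpx4 turned after quantile (0.010) and loess normalization (0.018) and with array weights (0.0071), and Sod3 with array weights (0.056). Without 1 sample, Gpx4 ranged from -0.022 to 0.025, Sod3 from -0.11 to 0.053 and Nqo1 from -0.027 to 0.21. The cause of each change was not tested. Replicate numbers did not pair the samples (correlations of deviations 0.053, -3.0e-04 and 0.043). With the replicate block, 11 redox genes were called in place of 14 (3 higher, 8 lower), with the calls of Glrx, Glrx2 and Gstm2 lost, and 3406 genes in place of 4257. No background level was measured, and Sod3 and Nqo1 were the dimmest redox genes.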
